A study of Homo sapiens with 8 samples.

Results

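Cytosolic ribosomal protein genes encode the protein part of the ribosome that translates nuclear-encoded mRNA. They were taken by symbol as RPS or RPL followed by a number and, in some, the letter A, X or L, with RPLP0 to RPLP2 and RPSA; the ribosomal S6 kinases and Y-linked copies were left out. Of 23368 symbols listed per library, 82 were members, 33 of the small and 49 of the large subunit. Counts high enough for the test were found for 77 of them, 31 of the small and 46 of the large subunit, among 14448 genes tested. FAU and GNB2L1 (the older symbol of RACK1) also encode ribosomal proteins but lie outside that symbol pattern, and they are given separately.

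RNA-seq was carried out on U87MG, an established human glioblastoma line, in 8 libraries. There were 2 libraries of untreated control cells and 2 each of cells exposed to enzalutamide for 4, 24 and 48 h. Enzalutamide is an antagonist of the androgen receptor, and the design asked which genes respond to it in these cells. The labels name no vehicle, no dose and no time for the untreated cells, and the extraction protocol mentions a differentiation step that the other protocols do not. The same control libraries served every time, so effects of enzalutamide and of time in culture cannot be told apart in any comparison. No genotype, allele or transgene is labelled, and nothing says if replicates were grown as separate cultures, so p-values measure only how far these libraries differ, and that may be technical. Total counts were 24620833 to 37162565 per library. Among the line's listed markers, abundant ones in every library were VIM at 5609 to 13638 CPM, CD44 at 1879.6 to 2952 CPM, TNC and FN1, while NES was at 10.9 to 43.3 CPM. Of 22 markers of neurons, glia, immune and other cells, 19 stayed under 1 CPM in every library. The summed level of the 22 was 40.6 and 39.9 CPM in control, 42.8 and 47.1 CPM after 4 h, 46.3 and 48.5 CPM after 24 h, and 24.7 and 23.8 CPM after 48 h, mostly from SNAP25; its part in the results was not tested.

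A ribosome joins a small subunit, which reads the mRNA, to a large subunit, which forms the peptide bond, and each holds rRNA and a fixed set of proteins, nearly all in a single copy. RNA polymerase I makes the large rRNA precursor in the nucleolus, where assembly factors and imported ribosomal proteins build both subunits. Ribosomal protein mRNAs typically begin with a run of pyrimidines (C and T in the DNA), the terminal oligopyrimidine or TOP motif, through which mTORC1 and the RNA-binding protein LARP1 control their translation. In tumour cells, MYC and mTORC1 are known as major drivers of ribosome production.

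The starts of these genes are shown because this pyrimidine run is the sequence feature that the family shares and that the choice by symbol did not use. RefSeq promoters (GRCh38.p14) were matched by symbol for 62 of the 77 tested members (80.5%) and for 64 of the 82 listed (78%), and 10 genes had more than one annotated start. Each line holds 50 bases on the gene's strand, 5′ to 3′, 25 before the annotated start and 25 from it, and capitals mark the longest run of C and T within 3 bases of the start. The first 5 are the members with the largest change after 48 h. RPLP0, RPL11 (its downstream start) and RPL39 belong to the stalk, the 5S particle and the exit tunnel. The last 3 have short runs. RPL6 is shown at the start with a run of 2 bases, and its other annotated start has a run of 5.
RPS27 (chr1:153990737-153990786, plus strand): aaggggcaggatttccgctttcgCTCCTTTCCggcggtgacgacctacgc
RPL12 (chr9:127451382-127451431, minus strand): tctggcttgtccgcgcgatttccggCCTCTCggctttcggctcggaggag
RPL13A (chr19:49487583-49487632, plus strand): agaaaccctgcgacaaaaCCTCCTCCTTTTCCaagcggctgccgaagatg
RPS9 (chr19:54200833-54200882, plus strand): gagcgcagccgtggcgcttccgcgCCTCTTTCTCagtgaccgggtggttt
RPS12 (chr6:132814544-132814593, plus strand): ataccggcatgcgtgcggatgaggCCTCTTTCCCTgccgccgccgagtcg
RPLP0 (chr12:120201087-120201136, minus strand): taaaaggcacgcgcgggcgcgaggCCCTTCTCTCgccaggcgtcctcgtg
RPL11 (chr1:23691781-23691830, plus strand): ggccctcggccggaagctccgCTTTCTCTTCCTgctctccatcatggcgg
RPL39 (chrX:119791606-119791655, minus strand): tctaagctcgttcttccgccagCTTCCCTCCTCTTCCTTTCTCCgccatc
RPS27L (chr15:63157453-63157502, minus strand): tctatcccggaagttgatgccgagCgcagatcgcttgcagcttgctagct
RPS15 (chr19:1438371-1438420, plus strand): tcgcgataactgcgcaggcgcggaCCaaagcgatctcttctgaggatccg
RPL6 (chr12:112409261-112409310, minus strand): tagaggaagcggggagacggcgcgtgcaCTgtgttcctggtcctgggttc

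A run of at least 6 C or T bases lay within 3 bases of the start in 51 of the 62 members with a promoter (82.3%), against 22.5% of 27239 other genes. The median run was 11 bases in members and 3 bases in the other genes. The letters CTTTC or CTTTT, which overlap such a run, occurred within 20 bases of the start on the gene's strand in 77.4% of members and 12.1% of the other genes. On the other strand the shares were 4.84% and 9.08%. TATAA within the 50 bases before the start was found on the gene's strand in 11.3% of members and 5.94% of the other genes, and on the other strand in 6.45% and 3.3%. These matches describe letters near annotated starts and do not show that a factor acts there. Members with a run of 6 or more had a median log2 change of 0.61 after 48 h against control (51 genes) and those with a shorter run 0.59 (11 genes).

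Ribosomal protein genes were among the abundant transcripts of every library. They took 2.63 and 2.41% of all counts in control, 2.52 and 2.47% after 4 h, 2.37 and 2.30% after 24 h, and 3.37 and 2.95% after 48 h. The group means were 2.52 ± 0.162% in control, 2.50 ± 0.0319% after 4 h, 2.33 ± 0.0550% after 24 h and 3.16 ± 0.301% after 48 h (SD, n = 2 libraries, as for every mean below). Both 48 h libraries lay above the other 6, and the 4 h and control shares overlapped. With counts scaled to CPM by library total and TMM factor (CPM below), the members summed to 24651 and 22347 in control, 24787 and 23828 after 4 h, 23151 and 22314 after 24 h, and 38761 and 32747 after 48 h. The small-subunit sum divided by the large-subunit sum stayed between 0.512 and 0.533 in all 8 libraries. The percentages are shares of all counts, and the mean share after 48 h was 1.25 times that of control. The sums also depend on the TMM factors, 0.870 and 0.899 after 48 h and 1.07 and 1.08 in control. Both measures are relative to the other sequenced RNA, and a change of RNA per cell cannot be told apart from a change in the mix of cells.

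Per kilobase of coding sequence, which leaves out the untranslated ends, the tested members had a median level of 574 CPM in control cells, from 2.17 for RPL36A to 2554 for RPL41. RPL41, the smallest ribosomal protein, was followed by RPL37A at 1872 ± 169.8, RPL8 at 1564 ± 118 and RPL30 at 1456 ± 89.6 CPM per coding kilobase. RPL41 stood at 2554 ± 265 on the same scale, and the spreads of RPL8 and RPL30 overlapped. Without a length scale the median member had 275 CPM in control, RPL41 had 199 CPM, and 7 members had under 30 CPM. The first rank of RPL41 thus depends on dividing by its coding sequence of 78 bases. Coding sequences of members ran from 78 to 1284 bases with a median of 456, against 1435.5 bases over all tested genes with an annotation. Members lay on 21 chromosomes.

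The 5 members that did not pass the filter held almost no counts. RPL3L, a paralogue of RPL3 found in striated muscle, had 0 counts in all 8 libraries, which allows up to 0.0807 to 0.122 CPM per library for counting error alone (3 counts of the library total). RPL10L, a paralogue of RPL10 known from the testis, had at most 1 count per library. RPL21 had 0 counts in 7 libraries and 2 in 24 h replicate 2. How reads with several matches were treated is not given in the sources used here, so low counts of members with close copies do not show absence. RPL36A, RPL17 and RPS10, each with a read-through symbol in the files that held 0 counts, were the 3 lowest tested members per coding length, at 0.698 ± 0.255, 9.19 ± 1.11 and 1.61 ± 0.609 CPM in control. A further 29 symbols named as ribosomal protein pseudogenes together held 3.06 to 3.43% of the count of the members. RPSAP58 had 8190 to 19893 counts, so the values of RPSA and of other members with close copies are uncertain in level.

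After 48 h of enzalutamide, 74 of 77 tested ribosomal protein genes were higher than in control and 0 were lower at a Benjamini-Hochberg adjusted p under 0.05 in edgeR's quasi-likelihood test. Over all 14448 genes, 33.3% were called higher and 33.5% lower, 66.9% in all. The median member changed by 0.61 on the log2 scale with quartiles of 0.55 and 0.67, while the median of all genes was -0.02, and 16.2% of all genes exceeded the median member. The groups did not overlap in 74 members, all with both 48 h libraries above both controls, against 40.2% of all genes in that direction. The small subunit had 30 of 31 members higher with a median of 0.60, and the large subunit 44 of 46 with a median of 0.61. With transcript length and GC content corrected, 69 members were higher and the median was 0.34, beside -0.05 for all genes. Scaled by library totals alone, 65 were higher with a median of 0.33, but that scaling moved the median of all genes to -0.30. The 48 h libraries differed from each other as well: replicate 1 exceeded replicate 2 in 77 of 77 members, with a median log2 difference of 0.26. It did so in 76 members in control (median 0.14), 67 after 4 h (0.05) and 68 after 24 h (0.05). Without 48 h replicate 1 the median was 0.47 (71 higher), and without 48 h replicate 2 it was 0.74 (75 higher).

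**Figure D1:**
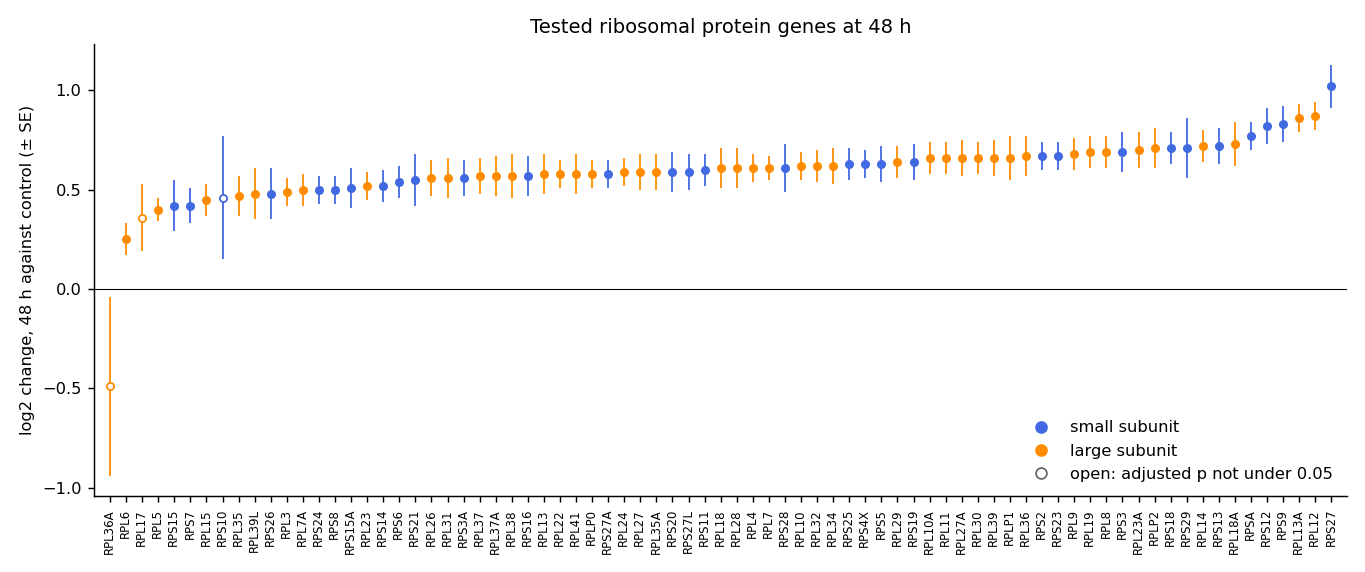
Log2 change after 48 h against control of each tested ribosomal protein gene, ordered by size, with the standard error of edgeR's fit; blue points are small-subunit and orange points large-subunit genes, and open points missed an adjusted p of 0.05. All but RPL36A lie above 0, and 3 points are open.

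RPS27, a zinc-finger protein of the small subunit, had the largest change. It had 53.0 and 44.2 CPM in control, 67.5 and 59.1 CPM after 4 h, 56.5 and 56.9 CPM after 24 h, and 106 and 90.7 CPM after 48 h. Both libraries of each treated time lay above both controls, and the 48 h libraries were highest. Against control the log2 change after 48 h was 1.02 (SE 0.11, adjusted p = 6.59e-06), a 2.03-fold rise. RPL12, which sits at the base of the stalk, had 95.1 and 87.3 CPM in control, 95.2 and 95.6 CPM after 4 h, a mean of 85.0 ± 2.82 CPM after 24 h, and 176 and 157 CPM after 48 h. Its change after 48 h was 0.87 (SE 0.07, adjusted p = 1.57e-06). The earlier libraries all stayed under 100 CPM for RPL12, so the rise lay between 24 and 48 h.

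RPL13A is a large-subunit protein that also acts outside the ribosome in an inhibitory complex on inflammatory mRNAs. It had 67.5 and 68.2 CPM in control, 78.9 and 75.1 CPM after 4 h, 59.8 and 59.5 CPM after 24 h, and 131 and 115 CPM after 48 h. At 48 h it was 1.81-fold higher than in control (log2 change 0.86, SE 0.07, adjusted p = 1.50e-06). RPS9, a protein of the small-subunit body that takes part in early assembly, had 346 and 302 CPM in control, 324 and 322 CPM after 4 h, 318 and 318 CPM after 24 h, and 632 and 519 CPM after 48 h. RPS9 changed by 0.83 after 48 h (SE 0.09), and RPS12, a small-subunit protein, by 0.82 (SE 0.09). The 4 h and 24 h libraries of RPS9 lay between its controls, and only the 48 h pair stood apart.

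At the other end of the range, RPL36A had -0.49 (SE 0.45, adjusted p = 0.35) after 48 h on 9 to 31 counts per library, and RPS10 had 0.46 (SE 0.31, adjusted p = 0.21) on 41 to 90 counts. RPL17 had 0.36 (SE 0.17, adjusted p = 0.085), which reached 0.57 (adjusted p = 0.0056) without 48 h replicate 2. These 3 are the members left without a call, and all 3 have few counts. RPL6, a large-subunit protein, had 312 and 289.7 CPM in control, 323 and 316 CPM after 4 h, 309 and 290 CPM after 24 h, and 381 and 332 CPM after 48 h. Its change of 0.25 (SE 0.08, adjusted p = 0.013) was the smallest called, and it turned to -0.03 when libraries were scaled by totals. RPL6 also lost its call with length and GC content corrected (0.06, adjusted p = 0.28), with a minimum of 5 CPM (0.16, adjusted p = 0.068), with only the groups compared in the fit (0.23, adjusted p = 0.052), without control replicate 2 (0.19, adjusted p = 0.11) and without 48 h replicate 1 (0.14, adjusted p = 0.07). RPS15, a small-subunit head protein, had 280.5 and 199 CPM after 48 h against 181 and 177 CPM in control. Its change of 0.42 (SE 0.13, adjusted p = 0.013) turned to -0.06 with length and GC content corrected, and it lost its call with library totals (0.14, adjusted p = 0.33) and without control replicate 1 (0.43, adjusted p = 0.051), control replicate 2 (0.40, adjusted p = 0.068) or 48 h replicate 1 (0.15, adjusted p = 0.1).

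**Figure D2:**
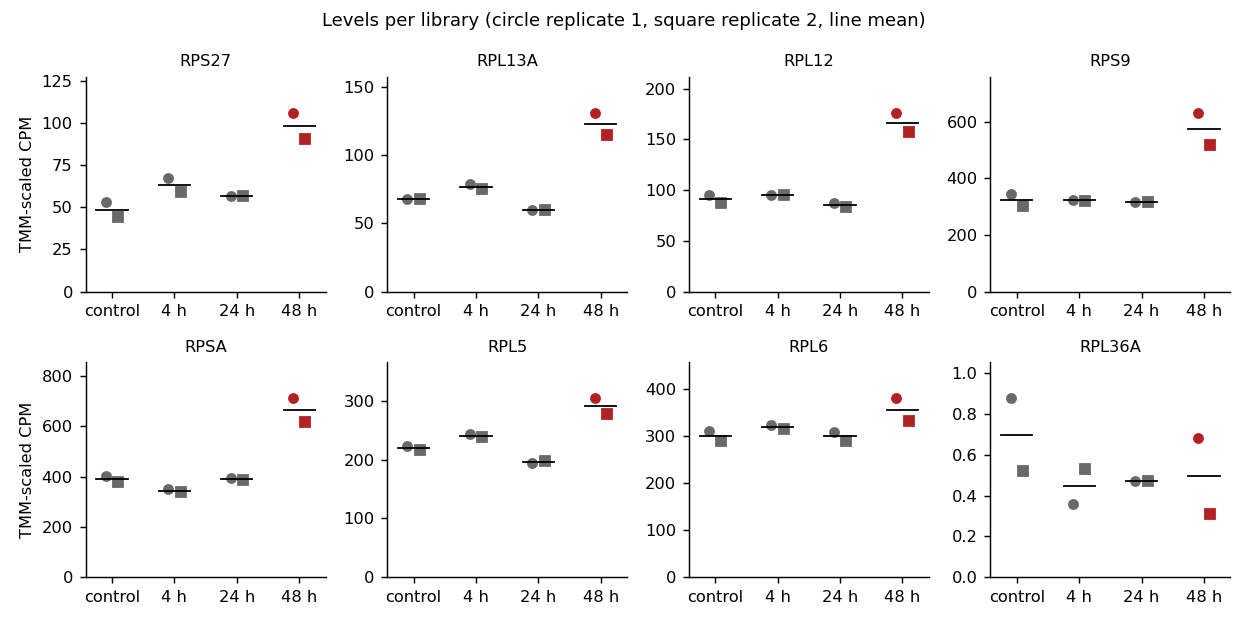
TMM-scaled CPM of 8 ribosomal protein genes in every library, by time on enzalutamide; circles are replicate 1, squares replicate 2, lines the group mean, and red marks 48 h. In 7 of the 8 genes both 48 h libraries lie above both controls, and RPL36A, under 1 CPM, shows no such order.

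By role, the stalk proteins RPLP0, RPLP1, RPLP2 and RPL12, which recruit the elongation factors, were all higher after 48 h, with a median change of 0.68. Among all tested members 96.1% were higher, with a median of 0.61, and among all genes 33.3%. RPLP0, the stalk's anchor, had 1780.1 and 1544 CPM after 48 h, against 1134 and 1091 CPM in control (log2 change 0.58, SE 0.07). RPLP1 and RPLP2, the acidic proteins that it carries, changed by 0.66 (SE 0.11) and 0.71 (SE 0.10). RPL5 and RPL11 join the 5S rRNA in a particle that, when free, binds MDM2. RPL5 had 224 and 217 CPM in control, 244 and 238 CPM after 4 h, 195 and 197 CPM after 24 h, and 305 and 278 CPM after 48 h. Its 24 h libraries were the lowest of the 8 and its 48 h libraries the highest. RPL5 changed by 0.40 after 48 h (SE 0.06) and RPL11 by 0.66 (SE 0.08), both called; scaled by library totals, RPL5 had 0.12 without a call (adjusted p = 0.074). Whether the partners differed from each other was not tested.

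RPL3, which lies near the peptidyl transferase centre and had the highest level of the members without a length scale, averaged 1803 ± 148 CPM after 48 h and 1285 ± 66.9 CPM in control (log2 change 0.49, SE 0.07). Of 8 proteins listed around the exit tunnel, 7 were higher after 48 h, with a median of 0.57, and RPL17 was the exception. These 87.5% stood beside 96.1% of all tested members (median 0.61) and 33.3% of all genes. RPS6, the substrate of the S6 kinases, had 797 and 675 CPM after 48 h against 533 and 483 CPM in control (log2 change 0.54, SE 0.08). RPSA, also known as the laminin receptor precursor, had 402 and 378 CPM in control, 351 and 337 CPM after 4 h, 395 and 385 CPM after 24 h, and 712 and 618 CPM after 48 h. Both 4 h libraries of RPSA lay below both controls, without a call (-0.18, SE 0.07, adjusted p = 0.086), and its 48 h change was 0.77 (SE 0.07). RPS27A, made as a fusion with ubiquitin, changed by 0.58 (SE 0.07) and RPS19 by 0.64 (SE 0.09). Of 12 genes mutated in Diamond-Blackfan anaemia, an inherited failure of red cell formation, 11 were tested. After 48 h 10 of these were higher and RPS10 had no call, with a median of 0.50. That share of 90.9% stood beside the same 96.1% of all tested members and 33.3% of all genes.

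Set beside other genes of like level, ribosomal protein genes had a higher median change after 48 h and a narrower spread. Among genes of 100 to 300 CPM in control, 29 of 29 members were higher with a median of 0.59, and 52.8% of 1628 other genes were higher with a median of 0.21. Between 300 and 1000 CPM, 30 of 30 members were higher (median 0.61), and of 370 other genes 57.6% were higher (median 0.27). At 1000 CPM and over, 4 of 4 members were higher (median 0.59) and 68.4% of 79 other genes (median 0.46). The interquartile range of the log2 change in these 3 bands was 0.11, 0.12 and 0.07 for members and 0.69, 0.62 and 0.57 for other genes. Below 100 CPM, 11 of 14 members were higher with a median of 0.61, and 29.4% of 12294 other genes were higher and 35.2% lower. These are descriptions with no test of the bands.

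Over all genes at 100 CPM and above in control, the 63 members had a median of 0.60 and the 2077 other genes 0.23. On a log2(CPM + 1) scale against the control mean, the median member was at 0.73 and 0.47 in the 48 h libraries and the median other gene at 0.25 and 0.21. Short genes were set apart after the data had been seen: with coding sequences of at most 600 bases, 42 of 42 members were higher (median 0.60), and 64.7% of 221 other genes were higher (median 0.33). By 48 h library, these short members had medians of 0.73 and 0.46 and the other short genes 0.41 and 0.24. Among the 77 members the 48 h change had a Pearson correlation of -0.01 with coding length, 0.19 with GC content, -0.02 with exon number and 0.41 with control CPM, the last with a Spearman correlation of 0.02. The genes share the same 4 libraries in these values.

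**Figure D3:**
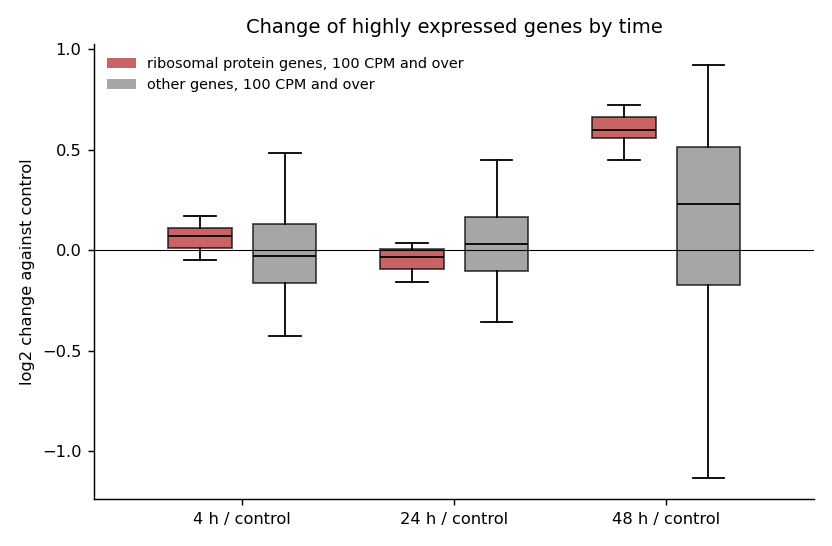
Log2 change against control at 4, 24 and 48 h for genes of at least 100 CPM in control, ribosomal protein genes (red, 63 genes) and other genes (grey, 2077 genes); boxes span the quartiles with the median as a line, and whiskers run from the 5th to the 95th percentile. At 48 h the red box lies at 0.56 to 0.66 and the grey box at -0.17 to 0.51.

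At 4 h, 2 members were higher than in control and 0 lower, while 15.0% of all genes were called higher and 13.6% lower, 28.6% in all. The median member changed by 0.07 and all genes by -0.00. RPS27 changed by 0.38 (SE 0.11, adjusted p = 0.020), a call lost without control replicate 2 (0.26, adjusted p = 0.18) or without 4 h replicate 1 (0.28, adjusted p = 0.17). RPL26, a protein near the tunnel that also binds p53 mRNA, changed by 0.27 (SE 0.09, adjusted p = 0.046); it kept the call only when a 48 h library was the one left out, and otherwise its adjusted p was 0.062 to 0.28. RPL26 had 399.5 and 379.5 CPM after 4 h against 342 and 306 CPM in control. The next in size were RPS10 (0.30), RPL34 (0.23) and RPL9 (0.23), and the lowest were RPL36A (-0.62), RPL39L (-0.33), RPSA (-0.18), RPL35 (-0.14) and RPLP0 (-0.12), none of them called. Both 4 h libraries lay above both controls in 28 members, against 34.1% of all genes, and below them in 4 members, against 34.5%. With either 48 h library left out of the fit, more members were called, and so were more of all genes. The median member change stayed at 0.07.

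At 24 h, 0 members were called in either direction by edgeR, with 4 at an unadjusted p under 0.05 (34.9% of all genes), and DESeq2 also called 0. Over all genes 12.9% were called higher and 9.39% lower, 22.3% in all. The median member changed by -0.03. Both 24 h libraries lay below both controls in 18 members, against 30.6% of all genes, and above them in 3, against 35.6%. The largest positive values were RPL39L (0.35, adjusted p = 0.080), RPS10 (0.28), RPS27 (0.22), RPL10A (0.13) and RPS26 (0.13). The most negative were RPL36A (-0.56), RPL13A (-0.19, adjusted p = 0.095), RPS15 (-0.18), RPL28 (-0.17) and RPL5 (-0.17, adjusted p = 0.076). With either 48 h library left out of the fit, more members were called, RPL13A (-0.18) and RPL5 (-0.17) among them. More of all genes were called as well, and the median member change stayed at -0.03.

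Between 4 and 24 h, 1 member rose and 5 fell, with 21.2% of all genes called higher and 20.3% lower, 41.5% in all. The members that fell were RPL13A (-0.37, adjusted p = 0.0023), RPL5 (-0.30, adjusted p = 0.0031), RPL13 (-0.29, adjusted p = 0.039), RPL34 (-0.26, adjusted p = 0.044) and RPL4 (-0.19, adjusted p = 0.043). RPL39L rose by 0.68 (SE 0.14, adjusted p = 0.0022). The median was -0.10, both 24 h libraries lay below both 4 h libraries in 51 members (38.1% of all genes) and above them in 6 (37.7%). The number that fell was 2 to 24 as each library was left out, with 24 when either 48 h library was removed; of the 5, RPL34 lost its call with each 4 h or 24 h library left out in turn (adjusted p = 0.066 to 0.26), RPL4 with each control, 4 h or 24 h library left out (0.056 to 0.23), and RPL13 without either control (0.052), 4 h replicate 1 (0.27) or either 24 h library (0.12 and 0.18). Between 24 and 48 h, 73 members were higher and 0 lower, with 31.5% of all genes higher and 35.3% lower (66.8% in all), and the median was 0.65. RPL36A (0.07), RPL17 (0.26), RPS10 (0.18) and RPL39L (0.13) had no call there. With length and GC content corrected, 65 were higher between 24 and 48 h and the median was 0.32.

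Some members have a paralogue that can take their place in the ribosome, and the ratio within such pairs was not the same in all groups. RPS27L, a p53-regulated paralogue, had more counts than RPS27, at a ratio of 2.97 and 3.27 in control, 2.24 and 2.39 after 4 h, 2.41 and 2.38 after 24 h, and 2.37 and 2.23 after 48 h. All 6 treated libraries lay below both controls. RPS27L rose after 48 h by 0.59 (SE 0.09). RPL39L, a paralogue of the tunnel protein RPL39 best known from the testis, stood to RPL39 at 0.153 and 0.134 in control, 0.0961 and 0.111 after 4 h, 0.175 and 0.180 after 24 h, and 0.126 and 0.128 after 48 h. Its ratio was lowest after 4 h and highest after 24 h, with no overlap among the 4 groups. RPL39L was higher after 48 h than in control (0.48, adjusted p = 0.0074), a call lost with length and GC content corrected (0.18, adjusted p = 0.16), with library totals (0.20, adjusted p = 0.19) and without control replicate 2 (0.33, adjusted p = 0.087). RPL39 changed by 0.66. RPS27 and RPS27L, and RPL39 and RPL39L, have closely similar coding sequences, so reads may have been shared, and the ratios were not tested.

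Among ribosomal proteins and paralogues outside the symbol pattern, 5 of 7 rose and 1 fell after 48 h, when 33.3% of all genes were called higher and 33.5% lower. FAU, whose product is cut into a ubiquitin-like protein and a small-subunit protein, had 342 and 288 CPM after 48 h against 228 and 202 CPM in control (0.55). GNB2L1, the scaffold protein on the small-subunit head, changed by 0.60. RPL22L1 rose by 0.77 and its ratio to RPL22 was 1.05 and 1.04 in control, 0.888 and 0.889 after 4 h, 1.12 and 1.06 after 24 h, and 1.24 and 1.14 after 48 h. RPL7L1 went the other way and fell to 12.3 ± 0.209 CPM after 48 h, against 25.2 ± 0.531 CPM in control (log2 change -1.03, SE 0.09, adjusted p = 1.99e-06). Its ratio to RPL7 was 0.0497 and 0.0556 after 48 h and 0.159 and 0.168 in control. RPL26L1 changed by 0.30 (adjusted p = 0.015), which was 0.02 (adjusted p = 0.88) with library totals and 0.07 (adjusted p = 0.39) with the correction, and lost its call in 4 further settings at 0.18 to 0.28. RPL36AL had -0.10 without a call, but was called lower with library totals (-0.38), the correction (-0.27) and a minimum of 5 CPM (-0.18), beside RPL36A, whose counts were too few to compare.

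**Figure D4:**
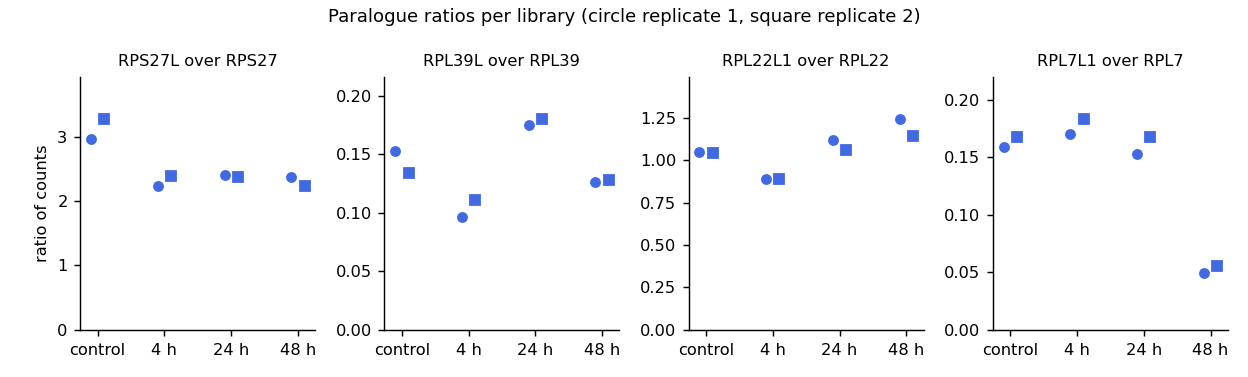
Ratio of the counts of 4 paralogues to those of the ribosomal protein gene they resemble, in every library by time; circles are replicate 1 and squares replicate 2. The ratio of RPL7L1 to RPL7 after 48 h, 0.0497 and 0.0556, lies below the other 6 libraries, and the ratio of RPS27L to RPS27 lies above that of every treated library only in the 2 controls.

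Other translation genes of the TOP class were all called higher after 48 h. Of 21 listed genes (FAU and GNB2L1 among them), 4 rose and 1 fell after 4 h (median 0.10), 1 rose and 4 fell after 24 h (median -0.15), and 21 rose and 0 fell after 48 h (median 0.66). Over all genes, the shares called higher and lower were 15.0 and 13.6% after 4 h, 12.9 and 9.39% after 24 h, and 33.3 and 33.5% after 48 h. EEF2, the elongation factor of translocation, averaged 7134 ± 577 CPM after 48 h and 3904 ± 205 CPM in control (0.87, SE 0.06). EIF4B, a helper of the initiation helicase, fell after 24 h (-0.37, SE 0.05) and rose after 48 h (0.73, SE 0.05). NPM1, a nucleolar histone and ribosome chaperone, rose after 48 h by 0.76 (SE 0.06). TPT1 (0.33), EEF1B2 (0.26) and NAP1L1 (0.19) rose after 4 h. HNRNPA1 rose (0.49) and EIF3E fell (-0.25) after 24 h.

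Among the factors that build the ribosome, rises were already called after 4 h, when 15.0% of all genes were called higher and 13.6% lower. Of 27 small-subunit assembly genes, 20 rose and 0 fell after 4 h (median 0.34), 1 rose and 5 fell after 24 h (median -0.12), and 15 rose and 7 fell after 48 h (median 0.32). The share higher was 74.1% after 4 h, and the shares of 3.7% higher and 18.5% lower after 24 h stood beside 12.9 and 9.39% of all genes. After 48 h the list had 55.6% higher and 25.9% lower, beside 33.3 and 33.5% of all genes. WDR43, a processome subunit, rose after 4 h to 115 ± 0.713 CPM, against 67.1 ± 1.85 CPM in control (0.78, SE 0.06). RRP12, which helps export of the subunits, changed by 0.82 (SE 0.07) and PNO1, a partner of the NOB1 nuclease, by 0.62 (SE 0.07). EMG1 rose (0.34), and IMP4 (-0.34) and NOB1 (-0.32) fell after 24 h. At 48 h IMP4 (1.04) and NOB1 (0.97) rose and BMS1, a processome GTPase, fell (-0.97). Of 36 large-subunit assembly genes, 19 rose and 0 fell after 4 h (median 0.24), 1 rose and 6 fell after 24 h (median -0.08), and 24 rose and 3 fell after 48 h (median 0.41). These were 52.8% higher after 4 h, 2.78% higher and 16.7% lower after 24 h, and 66.7% higher and 8.33% lower after 48 h, against the same shares of all genes. RRS1 (0.64), RSL1D1 (0.49) and RRP1 (0.54) rose after 4 h. EFTUD1 rose (0.39), and RRS1 (-0.51) and RSL24D1 (-0.44) fell after 24 h. RSL1D1 (1.03), GNL2 (0.89) and NLE1 (1.18) rose after 48 h.

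The RNA polymerase I list of 15 genes had 7 higher and 0 lower after 4 h, 2 higher and 1 lower after 24 h, and 5 higher and 7 lower after 48 h, with medians of 0.26, -0.04 and -0.13. After 4 h 46.7% were higher, against 15.0% of all genes, and none lower, against 13.6%. The 13.3% higher and 6.67% lower after 24 h were near the 12.9 and 9.39% of all genes, and after 48 h the 33.3% higher equalled the share of all genes, with 46.7% lower against 33.5%. POLR1B, the second largest subunit, rose after 4 h (0.71, SE 0.09) and POLR1C by 0.55. UBTF, which binds the rRNA genes, rose after 4 h (0.68) and 24 h (0.24) and fell after 48 h (-0.43). TAF1D fell after 24 h (-0.31) while TAF1A rose (0.33); TAF1D (1.56), POLR1D (0.94) and TAF1A (0.76) rose after 48 h. Of 12 genes for box C/D and H/ACA particles and related rRNA modification, 6 rose and 0 fell after 4 h, 0 rose and 1 fell after 24 h, and 6 rose and 4 fell after 48 h (medians 0.21, -0.08 and 0.25). The 6 of 12 higher stood against 15.0% of all genes after 4 h and 33.3% after 48 h. Its shares lower were near those of all genes after 24 h (8.33% against 9.39%) and 48 h (33.3% against 33.5%). NOP58 (0.67), NOP56 (0.45) and NOLC1 (0.35) rose after 4 h, and NOP58 fell after 24 h (-0.22). At 48 h NCL rose (0.47), and NOP58 (-0.54) and DKC1 (-0.43) fell.

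**Figure D5:**
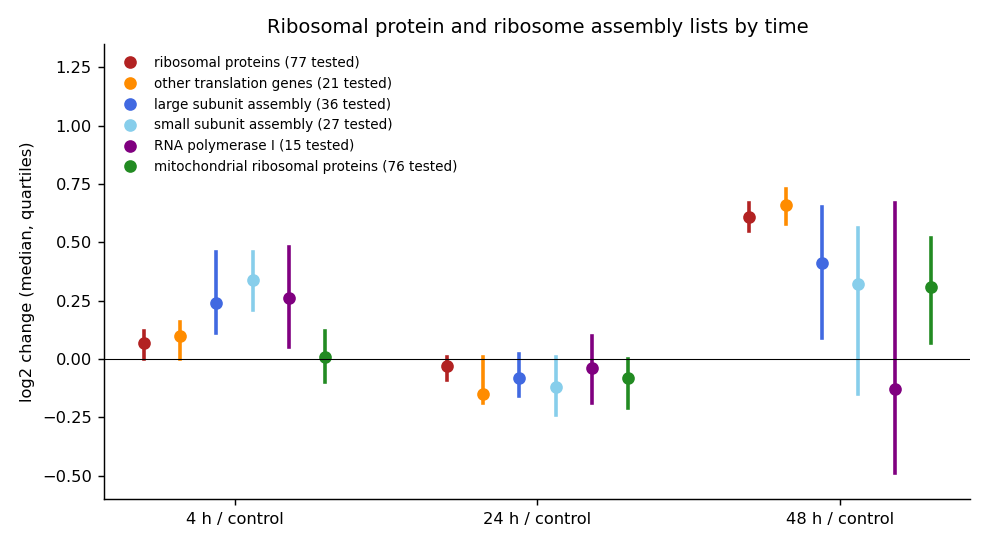
Median (point) and quartiles (line) of the log2 change against control for 6 gene lists at 4, 24 and 48 h of enzalutamide. Ribosomal protein genes have medians of 0.07, -0.03 and 0.61, and the 2 assembly lists have 0.24 and 0.34 after 4 h.

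Genes that regulate ribosomal protein mRNAs had calls in both directions, as all genes did. Of 28 tested, 6 rose and 2 fell after 4 h (median -0.06), 2 rose and 2 fell after 24 h (median 0.04), and 16 rose and 6 fell after 48 h (median 0.47). The shares higher and lower were 21.4 and 7.14% after 4 h (15.0 and 13.6% of all genes), 7.14 and 7.14% after 24 h (12.9 and 9.39%), and 57.1 and 21.4% after 48 h (33.3 and 33.5%), so the earlier counts were near or below the background. MYC, a transcription factor that binds ribosomal protein promoters, averaged 465 ± 1.26 CPM after 48 h and 71.3 ± 5.21 CPM in control (log2 change 2.70, SE 0.07), and it was also called higher after 4 h (0.50) and 24 h (0.22). Its partner MAX rose after 4 h (0.61), as did LARP4 (0.61), which binds poly(A) and stabilises mRNA. RPTOR, the defining subunit of mTORC1, fell after 24 h (-0.80, SE 0.06) and 48 h (-1.51, SE 0.06). MLST8, an mTOR subunit, fell after 24 h (-0.42) and was higher than control after 48 h (0.60). SP1 rose after 24 h (0.23) and had 242 and 266 CPM after 48 h, against 95.1 and 99.3 CPM in control. EIF4EBP2, a repressor of cap-dependent initiation, fell to 6.86 ± 0.896 CPM after 48 h, against 49.0 ± 3.21 CPM in control (-2.84, SE 0.12). Whether any of these moved the ribosomal protein genes was not tested.

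Of 12 import factors and chaperones of ribosomal proteins, 4 rose and 2 fell after 4 h, 2 rose and 2 fell after 24 h, and 5 rose and 1 fell after 48 h (medians 0.09, 0.03 and 0.16). The list had 33.3% higher and 16.7% lower after 4 h, against 15.0 and 13.6% of all genes, and 16.7% in each direction after 24 h, against 12.9 and 9.39%. After 48 h 41.7% were higher, near the 33.3% of all genes, and 8.33% lower, against 33.5%. XPO1, the export receptor of both subunits, fell after 4 h (-0.32) and rose after 24 h (0.37), and so did the importin IPO9 (-0.29 and 0.39). PDCD2, a chaperone of RPS2, rose after 4 h (0.27), and IPO5 fell after 24 h (-0.28). At 48 h the importin IPO7 (0.60) and TSR2, the chaperone of RPS26 (0.75), rose, and HEATR3, which carries RPL5 and RPL11, fell (-1.58, SE 0.17). Mitochondrial ribosomal proteins, which serve the separate ribosome of that organelle, had few calls before 48 h. Of 76 tested, 6 rose and 2 fell after 4 h, 3 rose and 7 fell after 24 h, and 43 rose and 6 fell after 48 h, with medians of 0.01, -0.08 and 0.31. After 4 h the 7.89% higher and 2.63% lower were below the 15.0 and 13.6% of all genes. After 24 h 3.95% were higher, below the 12.9% of all genes, and 9.21% lower, near the 9.39%, and after 48 h the shares were 56.6 and 7.89%, against 33.3 and 33.5%. MRPL1 (0.68), MRPS25 (0.39) and MRPL15 (0.34) rose after 4 h; MRPL37 rose (0.30) and MRPL54 (-0.52) and MRPL3 (-0.26) fell after 24 h. MRPS30 (1.90), MRPL44 (1.52) and MRPS2 (1.09) rose after 48 h. At 48 h the quartiles of these genes were 0.07 and 0.52, against 0.55 and 0.67 for the cytosolic set, a difference in spread that was not tested.

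The named genes of these other lists and paralogues had 110 calls against control, and 34 of them were lost when some library was left out, with every value keeping its sign. After 4 h these were NAP1L1, EEF1B2, TPT1, RPL36AL, PDCD2, HEATR3, XPO1, IPO9, IMP4, NOB1, NCL, MRPL15, MRPL44 and MRPS30. After 24 h they were UBTF, TAF1D, TAF1A, NOP58, PNO1, IMP4, NOB1, EMG1, MYC, MLST8, SP1, EIF3E, IPO5, IPO9, MRPL3, MRPL37 and MRPL54. After 48 h they were RRP1 (0.13, adjusted p = 0.21, without control replicate 2), MRPL1 (0.28, adjusted p = 0.11, without control replicate 2) and RPL26L1.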

How the data were processed

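The authors deposited raw counts by gene symbol, 1 file per library, per the file headers and values. Per the submitters' processing notes, Bowtie was used with hg19, also named GRCh37; the counting program, the annotation and the strand setting: not given in the sources used here. Overlapping genes, antisense genes and near-identical copies may share reads.

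Groups and replicate numbers came from the labels. The analysis used edgeR 4.0.16 under R 4.3.3: filterByExpr, TMM factors (0.870 to 1.08), 1 quasi-likelihood fit of all 8 libraries with 1 coefficient per group, and 4 residual degrees of freedom (biological coefficient of variation 7.15%). Every adjusted p is two-sided and adjusted by Benjamini-Hochberg. It came from this test over 14448 genes, or from another setting where the text names it. With a minimum of 5 CPM the adjustment ran over 11076 genes. A gene was called at an adjusted p under 0.05. Each SE was derived from the log2 change and its F statistic. The steps were also run on simulated counts, with changes set in a small part of the genes and a single dispersion. Such a run cannot test the scaling where most genes are called, as at 48 h. GENCODE 29 gave coding length, exon number and GC content by symbol, for 81 of the 82 members. Counts of 0 and their limits cover counting error only.

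The members and lists were chosen with earlier results of these data known. Named genes were, per comparison with control, the 5 largest and 5 smallest changes among members; the 4 highest levels per coding length; members below the filter; members chosen by role; and up to 3 called genes of each other list with the smallest p. RPL4 and RPL13 were named after their values were seen. Other settings were DESeq2 1.42.0, other scalings and filters, only the groups compared, the replicate number as a block, a length and GC correction, and each library left out. Columns of other samples numbered 0. Some genes that the rule selects are left out of the text.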

Additional observations from a re-analysis of the deposited data

Results flagged for a closer look

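Against control, no cytosolic ribosomal protein gene was called in opposite directions at different times in the main fit, where 0 were called lower at any time. Between times, RPL13A, RPL5, RPL13, RPL34 and RPL4 were called lower from 4 to 24 h and higher from 24 to 48 h. Among the named genes of the other lists, 16 were called against control in opposite directions at adjacent times (4 and 24 h, or 24 and 48 h), with a called difference between those times (edgeR's quasi-likelihood test). Most of these genes were named for a small p in a comparison with control. The share of all genes with such a reversal was not worked out, so the 16 cannot be read against a background. The 48 h libraries were not compared with the 4 h libraries, so genes such as HEATR3 (0.53 after 4 h, -1.58 after 48 h) and LARP4 (0.61 and -1.07) are not counted here. Between 4 and 24 h the difference was -1.15 for RRS1, -0.90 for NOP58, -0.87 for PNO1, -0.66 for IMP4 and -0.63 for NOB1, all higher than control at 4 h and lower at 24 h. It was 0.69 for XPO1, 0.68 for IPO9 and 0.61 for SP1, which were lower at 4 h and higher at 24 h. Between 24 and 48 h it was 1.87 for TAF1D, 1.38 for IMP4, 1.29 for NOB1, 1.15 for MRPL54, 1.10 for EIF4B, 1.02 for MLST8, 1.00 for RSL24D1, 0.65 for PNO1, 0.58 for EIF3E and 0.50 for MRPL3, lower than control at 24 h and higher at 48 h. UBTF differed by -0.68 between 24 and 48 h, higher than control at 24 h and lower at 48 h. At least 1 of the 2 calls against control was lost when some library was left out for UBTF, NOP58, PNO1, XPO1, IPO9, EIF3E, TAF1D, IMP4, NOB1, MLST8, SP1, MRPL54 and MRPL3, and for neither call of RRS1, EIF4B and RSL24D1.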

How the results depend on the processing

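At 48 h against control the number of members called higher stayed within 65 to 75 in every setting run, with 0 lower, and was 70 to 75 as each library was left out. The earlier counts moved more, and in some settings the share of all genes called moved too. At 4 h, 24 h and 24 h against 4 h that share was 28.6, 22.3 and 41.5% in the main fit. It was 37.5, 34.8 and 51.6% with only the groups compared, and 35, 27.1 and 46% with length and GC content corrected. With library totals it was 29.9, 22.7 and 40.9%, near the main fit. At 4 h, the number higher was 1 with DESeq2 size factors or library totals, 10 with only the groups compared, 17 with length and GC content corrected, and 0 to 13 with a library left out; the number lower was 2 with library totals, 1 with only the groups compared or the correction, and 0 to 3 with a library left out. At 24 h, the number higher was 2 with only the groups compared, 4 with the correction and 0 to 2 with a library left out; the number lower was 1 with DESeq2 size factors, 5 with library totals, 10 with only the groups compared and 0 to 5 with a library left out. For 24 h against 4 h, the number higher was 2 with library totals, no filter or only the groups compared, 3 with the correction and 1 to 2 with a library left out; the number lower was 8 with DESeq2, its size factors or a minimum of 5 CPM, 29 with only the groups compared, 10 with the correction and 2 to 24 with a library left out. With the replicate number as a block, the counts were 6 higher and 1 lower at 4 h, 1 higher at 24 h, 75 higher at 48 h, and 2 higher and 14 lower for 24 h against 4 h; same-numbered libraries had deviations correlated at 0.11 (control with 24 h), 0.28 (control with 48 h) and 0.16 (24 with 48 h), and at -0.03 to 0.03 in the other 3 pairs of groups. The labels give the numbers no shared source, so the libraries were not taken as paired, which does not show that they are not. Without the 100 other genes with the highest totals, members held 3.13, 3.15, 2.91 and 4.07% of counts in control and at 4, 24 and 48 h; with a library left out, the shares were 2.41 to 2.63, 2.47 to 2.52, 2.3 to 2.37 and 2.95 to 3.37%. Library totals turned the 48 h change against control to -0.05 for RRP1, -0.23 for MAX, -0.22 for MRPL15, -0.04 for MRPL3 and -0.03 for RPL6. The correction turned RPS15 to -0.06 at 48 h against control and, against 24 h, RPL35 to -0.01 and RPL36AL to -0.17. The cause of these moves was not tested.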
